A study of Homo sapiens with 6 samples.

Results

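The genes described here are the 49 that encode the extracellular side of Wnt signaling: 19 WNT ligands, 10 Frizzled receptors (FZD1 to FZD10), 5 co-receptors (LRP5, LRP6, ROR1, ROR2 and RYK), 10 secreted antagonists (SFRP1, SFRP2, SFRP4, SFRP5, FRZB, DKK1 to DKK4 and WIF1), 4 R-spondins and the Wnt exporter WLS. The genes were chosen by symbol alone among the 58735 genes of the count table, by a rule that uses no measured value, though earlier results of these data were known when the list was made. All 49 were found, 47 had at least 1 count in some library, and 30 had enough counts to be tested. H9 cells, an established line of hESCs of wild-type genotype, were differentiated toward the endoderm of the 3rd pharyngeal pouch (3PPE), the embryonic tissue from which the thymus and parathyroids arise. Both groups received the same factors: activin A at 100 ng/ml with WNT3A at 50 ng/ml and the ROCK inhibitor Y-27632 at 10 μM on the first day, activin A with B27 on the days after that, and, from reseeding at day 4, RA at 1 μM, SB431542 at 10 μM, BMP4 at 20 ng/ml and IWP2 at 2.5 μM with B27. On day 7 the cells received either a negative control siRNA (NC, 3 libraries) or HOXA3 siRNA (Si-HOXA3, 3 libraries) by lipofection, the medium was changed to opti-MEM some hours later, and RNA was taken on day 9. The labels give the genotype of the Si-HOXA3 cells as HOXA3 knockdown and name no sort, and the H9 cells had first been grown on a feeder layer of mouse embryonic fibroblasts.

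Wnt ligands are lipid-modified glycoproteins that are acylated by PORCN and carried to the cell surface by WLS. At the receiving cell they bind a Frizzled receptor with LRP5 or LRP6, which stabilizes β-catenin, or with ROR1, ROR2 or RYK, which act on cell polarity and movement. SFRP proteins, FRZB and WIF1 bind the ligands outside the cell, DKK1 blocks LRP5 and LRP6, and R-spondins protect Frizzled receptors from degradation. In the pharyngeal region Wnt signals take part in patterning the pouches and in the growth of the thymic epithelium. IWP2 inhibits PORCN and so acts on the ligand proteins, while the measurements here are of RNA.

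Total counts ranged from 14117150 to 15282307 per library, and a count of 3, the most that a count of 0 allows, was worth 0.197 to 0.211 CPM (counts scaled to library size), which covers counting error only. HOXA3 had counts of 248, 240 and 236 in the NC libraries and 159, 199 and 220 in the libraries labelled Si-HOXA3. Its log2 fold change was -0.28 (SE 0.157; edgeR quasi-likelihood adjusted p = 0.828), and the level of replicate 3 labelled Si-HOXA3 lay within the NC range. Replicate 2 labelled Si-HOXA3 stood apart from the rest: its quality weight in limma was 0.221 against 0.922 to 2.11 for the other 5 libraries, and it held the lowest value of 12 of the 30 tested Wnt genes. The main results are therefore also given without each of these 2 libraries. The labels call the libraries of a group triplicates, and the study's legends speak of independent biological repeats without naming the libraries, so the p-values measure the spread between these libraries, whatever its source. In RNA from a whole culture, fewer cells of a type and less RNA per cell cannot be told apart.

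Among the 6 classes, the groups lay farthest apart in the secreted antagonists. The summed level of that class was 413, 425 and 414 CPM in the NC libraries and 624, 544 and 529 CPM in the Si-HOXA3 libraries, so that the 2 groups did not overlap. SFRP1 alone made up 80.03% to 81.95% of the class in NC and 88.38% to 89.98% in Si-HOXA3, and the rest of the class went the other way, from 74.8 to 82.5 CPM in NC to 55.1 to 62.5 CPM in Si-HOXA3. WLS was lower in all 3 Si-HOXA3 libraries than in any NC library. The summed levels of the ligands, the Frizzled receptors, the co-receptors and the R-spondins overlapped between the groups. The ligand sum was 131 to 137 CPM in NC against 118 to 148 CPM in Si-HOXA3, and the Frizzled sum was 389 to 405 CPM in NC against 395 to 405 CPM in Si-HOXA3.

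**Figure D1:**
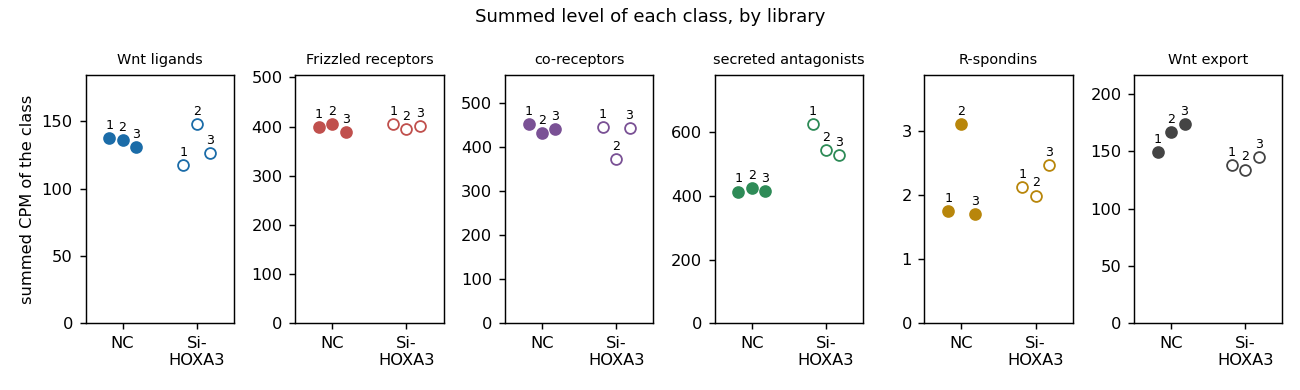
Summed CPM of the genes in each of the 6 classes (vertical axes, each starting at 0 with its own scale) in the NC libraries (filled points) and the Si-HOXA3 libraries (open points), with the replicate number above each point. The secreted antagonists lie at 413 to 425 CPM in NC against 529 to 624 CPM in Si-HOXA3, WLS lies at 149 to 174 CPM in NC against 134 to 145 CPM in Si-HOXA3, and the groups overlap in the other 4 classes.

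No Wnt gene passed an adjusted p of 0.05 in edgeR's quasi-likelihood test over the 16561 genes tested, in which 1 gene did (0.00604% of those tested). DESeq2 called 1 Wnt gene, SFRP1, and limma with quality weights called 2, SFRP1 and DKK3. At an unadjusted p under 0.05, 3 of the 30 Wnt genes were lower in Si-HOXA3 (DKK3, WNT4 and WLS), where 2.57% of all tested genes were, and 3 were higher (SFRP1, WNT5B and FZD8), where 3.79% of all tested genes were. In 5 of the 30 genes the levels put all 3 Si-HOXA3 libraries below all 3 NC libraries (DKK3, WNT4, WNT7B, WLS and ROR2), beside 6.88% of all tested genes. In 4 genes all 3 lay above (SFRP1, SFRP4, WNT5B and FZD8), beside 6.41% of all tested genes. Each of these 4 shares was above that of all tested genes, and each rested on 3 to 5 genes. The median log2 fold change of the 30 genes was -0.08, against 0.002 for all tested genes, and 19 of them were lower and 11 higher. An exact permutation test of 3 libraries against 3 cannot give a two-sided p under 0.1, and it gave 0.1 for each of these 9 genes.

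Levels of different genes were compared as CPM per kilobase of exons. SFRP1 was the highest of the 49 genes in NC at 71.0 ± 1.45 CPM per kb (SD, n = 3), followed by WLS at 36.5 ± 2.83 and WNT6 at 35.9 ± 2.92 CPM per kb. These last 2 genes did not differ beyond their spread. The receptors followed, with FZD6 at 21.6 ± 1.06, FZD2 at 20.5 ± 1.85, LRP5 at 15.4 ± 1.14 and ROR2 at 14.9 ± 0.131 CPM per kb, and DKK3 stood among them at 15.3 ± 0.815 CPM per kb. All 5 co-receptors and 8 of the 10 Frizzled genes were measured well, while 8 of the 19 ligands, 6 of the 10 antagonists and 3 of the 4 R-spondins fell under the filter. Among the ligands WNT6 stood far above the next ones, WNT5A at 3.24 ± 0.0461 and WNT2 at 2.84 ± 0.388 CPM per kb.

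**Figure D2:**
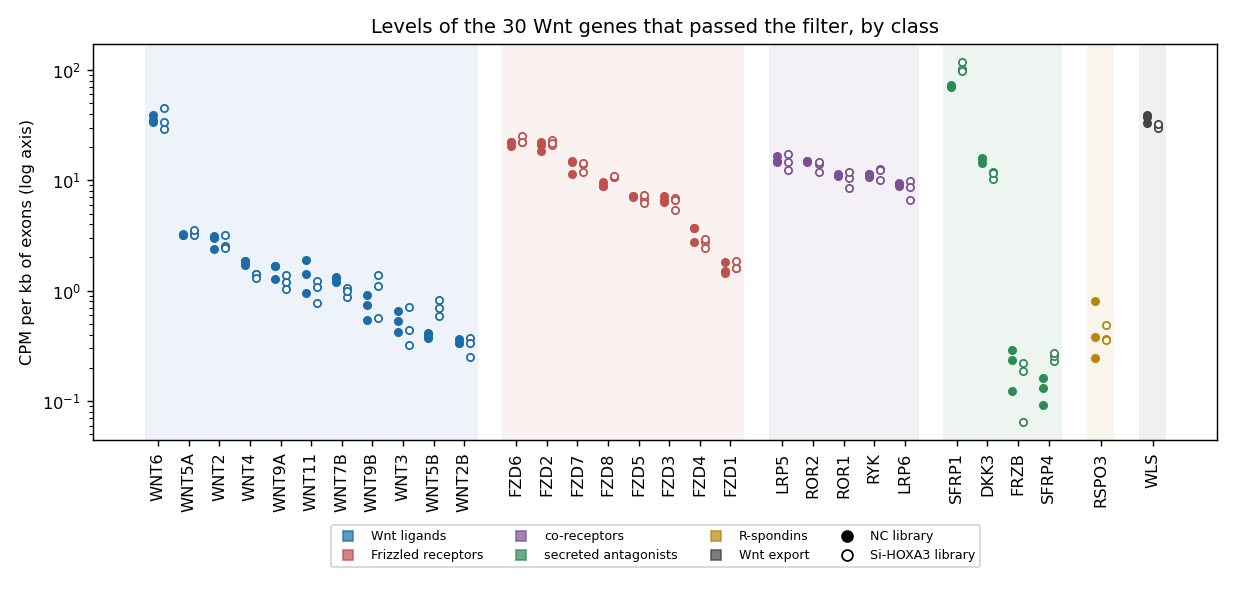
Level of each of the 30 Wnt genes that passed the filter, in CPM per kilobase of exons on a log axis, with filled points for the 3 NC libraries and open points for the 3 Si-HOXA3 libraries, ordered within each class by the NC mean. SFRP1, WLS and WNT6 are the highest, and the ligands other than WNT6 lie below the co-receptors.

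SFRP1, which binds Wnt ligands and Frizzled receptors outside the cell, had the smallest p of the 30 tested genes. Its counts were 4924, 5208 and 5184 in NC and 8162, 7359 and 6634 in Si-HOXA3, or 338 ± 6.93 CPM against 506 ± 49.1 CPM (SD, n = 3). Every Si-HOXA3 library lay above every NC library, and the NC libraries were close together. The fold was 1.5 on the linear scale, and on the log2 scale it was 0.58 (SE 0.108, 95% interval 0.34 to 0.82), with an unadjusted edgeR quasi-likelihood p of 0.000215 and an adjusted p of 0.445. The log2 fold change was 0.60 without Si-HOXA3 replicate 2, 0.64 without replicate 3 and 0.50 without replicate 1. The call depended on the setting: the adjusted p was 0.00127 with DESeq2, 0.00175 in edgeR with no filter, 0.00238 with limma's quality weights and 0.00163 in edgeR without Si-HOXA3 replicate 2, and over all 12 alternatives it reached 0.997. SFRP1 (ENSG00000104332) lies on chromosome 8 of GRCh38 from 41261958 to 41309497 on the minus strand, and no exon of it overlaps another gene.

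DKK3, a divergent member of the Dickkopf family, went the opposite way to SFRP1. Its counts were 1205, 1186 and 1112 in NC and 879, 786 and 834 in Si-HOXA3. The Si-HOXA3 libraries were all lower, at 57.1 ± 4.31 CPM against 77.4 ± 4.12 CPM in NC. On the log2 scale the difference was -0.44 (SE 0.104, 95% interval -0.67 to -0.21), with an unadjusted edgeR quasi-likelihood p of 0.00139 and an adjusted p of 0.486. It ranged from -0.48 to -0.38 over the 12 alternatives, with -0.38 without Si-HOXA3 replicate 2 and -0.46 without replicate 3, and the adjusted p passed 0.05 in limma with quality weights, at 0.0434. DKK3 (ENSG00000050165) lies on chromosome 11 from 11963106 to 12009769.

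The other antagonists were barely detected. SFRP4 had 7, 5 and 9 counts in NC and 12, 14 and 14 in Si-HOXA3, and its log2 fold change of 0.97 had a 95% interval of -0.04 to 1.97 (edgeR adjusted p = 0.781). FRZB, an SFRP relative first found in cartilage, had 6 to 14 counts in NC and 3 to 10 in Si-HOXA3. SFRP2 had 3 to 11 counts over the 6 libraries and SFRP5 had 0 to 8. DKK2 had 0, 2 and 2 counts in NC and 5, 8 and 5 in Si-HOXA3, under the filter. WIF1 had 2 counts in 1 Si-HOXA3 library and none in the other 5. DKK1 and DKK4 had no count in any of the 6 libraries, which allows up to 0.197 to 0.211 CPM in each.

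Among the ligands, WNT5B, which acts mostly without β-catenin, was the 1 tested gene of the 11 whose Si-HOXA3 libraries all lay above NC, with counts of 24, 26 and 27 in NC and 37, 53 and 43 in Si-HOXA3. Its level was 1.70 ± 0.0804 CPM in NC against 3.03 ± 0.49 CPM in Si-HOXA3. The log2 fold change was 0.83 (SE 0.275, 95% interval 0.23 to 1.44), with an unadjusted edgeR quasi-likelihood p of 0.0112 and an adjusted p of 0.692. It was 0.71 without Si-HOXA3 replicate 2, which held the highest value, and 0.84 without replicate 3. WNT5A, its nearest relative, was higher in level and nearly flat, with 352, 361 and 371 counts in NC and 352, 352 and 370 in Si-HOXA3 and a log2 fold change of 0.04 (95% interval -0.22 to 0.29). WNT5B (ENSG00000111186) lies on chromosome 12 from 1529891 to 1647243.

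WNT4, a ligand of the thymic epithelium and of the developing kidney and ovary, had 125, 128 and 119 counts in NC and 93, 97 and 84 in Si-HOXA3. All 3 Si-HOXA3 libraries lay below NC, at 6.25 ± 0.294 CPM against 8.22 ± 0.366 CPM. This difference was -0.39 on the log2 scale (SE 0.169, 95% interval -0.77 to -0.02), with an unadjusted edgeR quasi-likelihood p of 0.0403 and an adjusted p of 0.759. It was -0.42 without Si-HOXA3 replicate 2 and -0.35 without replicate 3, and the unadjusted p was under 0.05 in 5 of the 12 alternatives. WNT4 (ENSG00000162552) lies on chromosome 1 from 22117305 to 22143969, and 55 bases of its exons overlap a transcript on the other strand. WNT7B, a ligand of lung and skin epithelium, had 98, 102 and 93 counts in NC and 77, 66 and 71 in Si-HOXA3, again with no overlap. Its log2 fold change was -0.40 (95% interval -0.82 to 0.01; edgeR adjusted p = 0.781), and -0.33 without replicate 2. WNT9A, best known from joint formation, had 99, 100 and 77 counts in NC and 69, 83 and 59 in Si-HOXA3, so that the groups overlapped. Its log2 fold change was -0.34 (95% interval -0.81 to 0.12; edgeR adjusted p = 0.828), with -0.46 without Si-HOXA3 replicate 2 and -0.25 without replicate 3. WNT4, WNT7B and WNT9A were among the genes that the study displayed for these same libraries, so their common direction is not independent evidence. By qRT-PCR the study also reported WNT9A and WNT1 as lower after HOXA3 siRNA.

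WNT6, a ligand of surface ectoderm and of epithelia, was the most abundant ligand and took 43.4% to 48.6% of the ligand CPM in NC. Its level was the same on average in both groups, 61.2 ± 4.97 CPM in NC against 61.3 ± 14.4 CPM in Si-HOXA3, and the Si-HOXA3 libraries were far apart at 717, 1161 and 814 counts. Its log2 fold change was 0.002 (95% interval -0.34 to 0.34), and 6 of the 12 alternatives kept its sign. Without Si-HOXA3 replicate 2 it was -0.20. WNT2, a foregut ligand, had 161, 204 and 215 counts in NC and 165, 215 and 154 in Si-HOXA3, and its log2 fold change was -0.07 (95% interval -0.45 to 0.30). It was -0.21 without Si-HOXA3 replicate 2 and 0.0057 without replicate 3. The 4 remaining tested ligands, WNT2B, WNT3, WNT9B and WNT11, had means of 2.13 to 4.37 CPM in each group, and their unadjusted p-values were not under 0.05. WNT7A, which the study also displayed, had 10, 5 and 8 counts in NC and 1, 5 and 4 in Si-HOXA3. The NC libraries held 6, 3 and 0 counts of WNT8B and the Si-HOXA3 libraries 1, 1 and 2, and WNT1 had 4, 4 and 6 in NC and 9, 5 and 0 in Si-HOXA3. These genes were under the filter, and WNT3A, WNT8A, WNT10A, WNT10B and WNT16 had at most 10 counts in any library.

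WLS, the carrier that takes acylated Wnt proteins to the cell surface, had 2219, 2524 and 2648 counts in NC and 2009, 2016 and 2057 in Si-HOXA3. All Si-HOXA3 libraries were below all NC libraries, at 139 ± 5.46 CPM against 163 ± 12.7 CPM. The log2 fold change was -0.23 (SE 0.0993, 95% interval -0.45 to -0.01), with an unadjusted edgeR quasi-likelihood p of 0.0403 and an adjusted p of 0.759. It was -0.21 without Si-HOXA3 replicate 2, -0.26 without replicate 3 and -0.18 without NC replicate 3, and the unadjusted p was under 0.05 in 6 of the 12 alternatives. WLS (ENSG00000116729) lies on chromosome 1 from 68098473 to 68233120, and 111 bases of its exons overlap GNG12-AS1 on the other strand, whose reads cannot be told apart where counting ignored the strand.

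**Figure D3:**
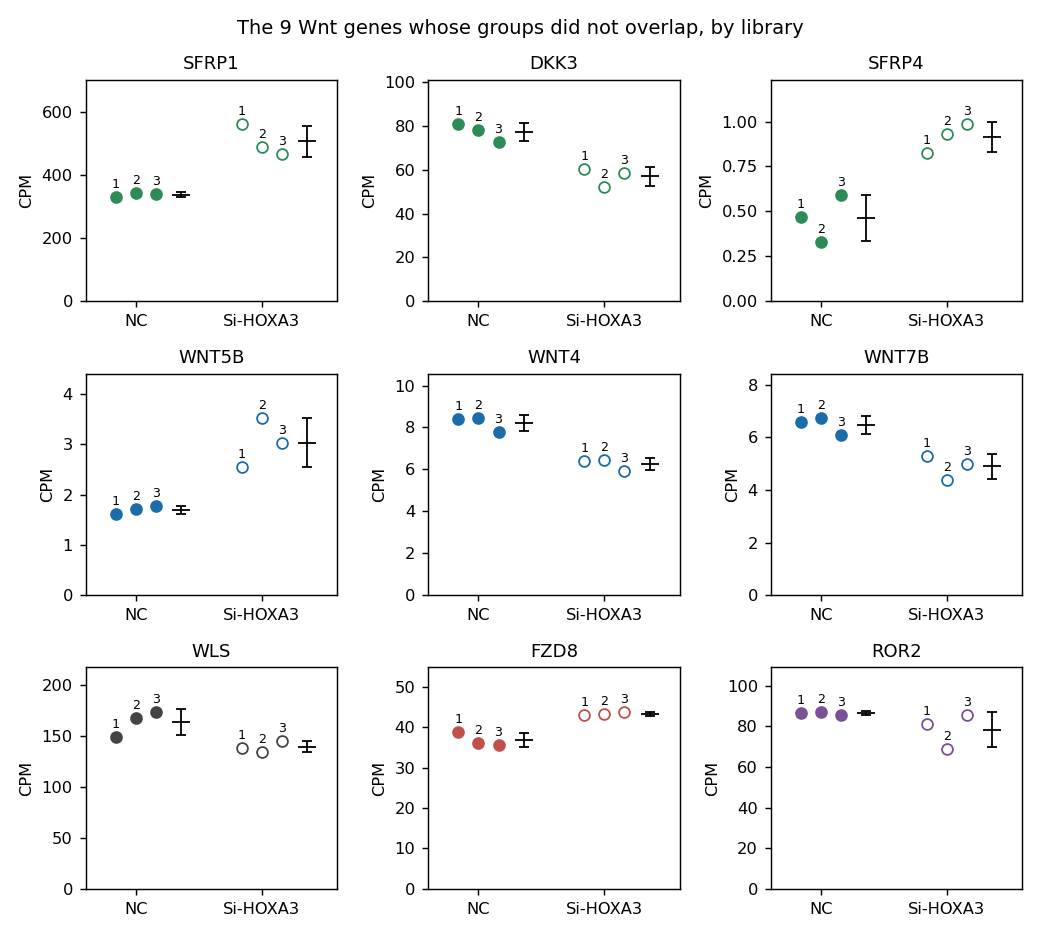
CPM (vertical axes, each starting at 0 with its own scale) of the 9 tested Wnt genes whose groups did not overlap, in the NC libraries (filled points) and the Si-HOXA3 libraries (open points), with the replicate number above each point and the mean ± SD beside it (n = 3). SFRP1, SFRP4, WNT5B and FZD8 are higher in Si-HOXA3, the other 5 are lower, and ROR2 replicate 3 of Si-HOXA3 lies just under the NC libraries at 85.4 CPM against 85.7 to 87.2 CPM.

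Among the tested Frizzled receptors the NC levels ran from 1.59 CPM per kb (FZD1) to 21.6 CPM per kb (FZD6). FZD6 at 21.6 ± 1.06, FZD2 at 20.5 ± 1.85 and FZD7 at 13.7 ± 1.93 CPM per kb were the 3 highest in NC, and FZD6 and FZD2 did not differ beyond their spread. Their log2 fold changes were 0.09 for FZD6, 0.09 for FZD2 and -0.03 for FZD7, each with a 95% interval that included 0. Leaving out 1 library moved FZD2 from 0.023 without NC replicate 3 to 0.149 without NC replicate 1, and FZD6 was 0.031 without Si-HOXA3 replicate 2, while FZD7 turned to 0.056 without Si-HOXA3 replicate 3. FZD8, a close relative of FZD5, had 579, 546 and 544 counts in NC and 624, 649 and 622 in Si-HOXA3. The groups did not overlap, at 36.9 ± 1.75 CPM in NC against 43.3 ± 0.466 CPM in Si-HOXA3. The log2 fold change was 0.23 (SE 0.103, 95% interval 0.005 to 0.46), with an unadjusted edgeR quasi-likelihood p of 0.0458 and an adjusted p of 0.769. It ranged from 0.21 to 0.27 over the 12 alternatives, but the unadjusted p was under 0.05 in 4 of them and not in the other 8. The study, in contrast, reported FZD8 as lower after HOXA3 siRNA, in RNA by qRT-PCR and in protein by Western blot. Its qRT-PCR also gave FZD3 and FZD5 as lower. The reason for the difference in FZD8 was not tested. FZD8 (ENSG00000177283) lies on chromosome 10 from 35638249 to 35642278, and 81 bases of its exons overlap MIR4683 on the same strand, which counting by strand could not separate. FZD5 had 719, 717 and 732 counts in NC and 661, 630 and 696 in Si-HOXA3, and its log2 fold change was -0.08 (95% interval -0.31 to 0.16), with -0.023 without Si-HOXA3 replicate 2 and -0.131 without replicate 3. FZD3, a receptor of the planar cell polarity branch, had 1313, 1496 and 1395 counts in NC and 1394, 1116 and 1292 in Si-HOXA3. Its log2 fold change of -0.09 (95% interval -0.35 to 0.16) turned to 0.0062 without Si-HOXA3 replicate 2, which held the lowest value. FZD4, the receptor of norrin and of several WNT ligands, had 403, 309 and 415 counts in NC and 299, 270 and 306 in Si-HOXA3, with 1399 bases of its exons overlapping PRSS23 on the other strand. FZD1 had means of 11.1 and 11.8 CPM in NC and Si-HOXA3. FZD9 had 0 to 12 counts and FZD10 0 to 5 counts per library.

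The co-receptors were all well measured, at 8.45 to 15.4 CPM per kb on average in either group. LRP5 and LRP6, the partners of Frizzled in the β-catenin branch, had log2 fold changes of -0.06 (95% interval -0.34 to 0.21) and -0.12 (95% interval -0.41 to 0.18). LRP6 had 1411, 1377 and 1495 counts in NC and 1482, 1041 and 1289 in Si-HOXA3, and LRP5 had 1538, 1375 and 1395 in NC and 1325, 1148 and 1503 in Si-HOXA3. Replicate 2 was the lowest Si-HOXA3 library for both, and without it the log2 fold changes were 0.046 for LRP5 and 0.024 for LRP6, while without replicate 3 they were -0.18 and -0.14. ROR2, a tyrosine kinase-like receptor of WNT5A, had 1291, 1319 and 1308 counts in NC and 1180, 1032 and 1213 in Si-HOXA3. Its groups did not overlap, though Si-HOXA3 replicate 3 at 85.4 CPM lay next to the lowest NC library at 85.7 CPM. The log2 fold change was -0.14 (95% interval -0.38 to 0.09; edgeR adjusted p = 0.850), with -0.058 without replicate 2 and -0.21 without replicate 3. ROR1 had means of 75.1 and 69.0 CPM in NC and Si-HOXA3. RYK, a pseudokinase receptor with a WIF domain, had 1371, 1315 and 1413 counts in NC and 1467, 1513 and 1150 in Si-HOXA3. On the log2 scale it differed by 0.057 (95% interval -0.19 to 0.30), with 0.0036 without Si-HOXA3 replicate 2 and 0.156 without replicate 3.

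The R-spondins were near the limit of detection. RSPO3, the highest of them, had 18, 39 and 12 counts in NC and 17, 17 and 22 in Si-HOXA3, and the sign of its log2 fold change of -0.25 (95% interval -1.24 to 0.75) rested on NC replicate 2, without which it was 0.36. RSPO4 had 3 to 7 counts in NC and 7 to 13 in Si-HOXA3, RSPO1 had 0 to 9 over the 6 libraries and RSPO2 0 to 2.

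**Figure D4:**
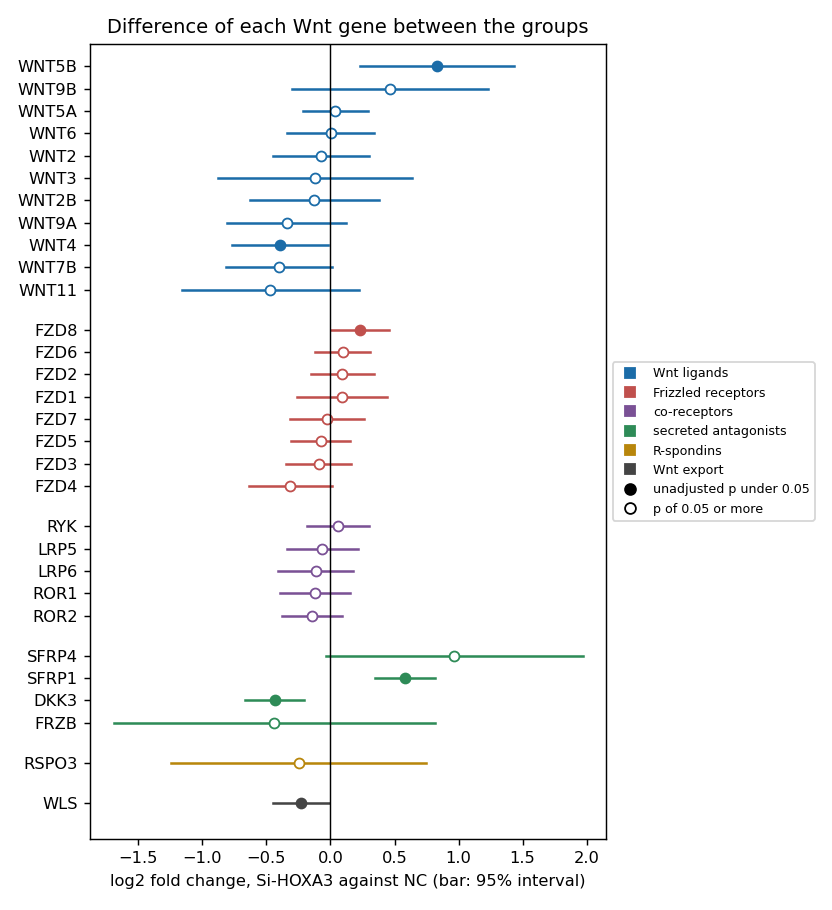
Log2 fold change of Si-HOXA3 against NC for the 30 tested Wnt genes (points) with 95% intervals (bars), grouped by class, with filled points for an unadjusted p under 0.05 in edgeR's quasi-likelihood test. SFRP1 at 0.58, WNT5B at 0.83 and DKK3 at -0.44 have the 3 intervals farthest from 0, and no gene passed after adjustment over all 16561 genes.

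Upstream sequences were available in the RefSeq table (GRCh38.p14) for 35 of the 49 genes. The 250 bases before the RefSeq start were searched on both strands for TAATTA, a core that many homeodomain proteins recognize, and for CTTTGAT, a core of the TCF and LEF factors that β-catenin joins. TAATTA was found in 2 of the 35, WNT5A at -50 and WNT8B at -40, where 4.35% of all 35116 windows of this length held it. The WNT5A window lies inside the GENCODE gene, with all 250 bases in annotated exons, while the WNT8B window has 0 exon bases. CTTTGAT was found in none of the 35, where 2.26% of all windows held it. Of the genes whose groups did not overlap, 3 with a window outside annotated exons are shown. WNT4 (chr1:22143098-22143347) and ROR2 (chr9:91950229-91950478) were lower in Si-HOXA3, and FZD8 (chr10:35642297-35642546) was higher. The WNT4 window lies before the RefSeq start but inside the GENCODE gene, which starts at 22143969 on the minus strand. The sequences are given 5′ to 3′ on the minus strand, the strand of all 3 genes, with each CpG dinucleotide in capitals.
WNT4: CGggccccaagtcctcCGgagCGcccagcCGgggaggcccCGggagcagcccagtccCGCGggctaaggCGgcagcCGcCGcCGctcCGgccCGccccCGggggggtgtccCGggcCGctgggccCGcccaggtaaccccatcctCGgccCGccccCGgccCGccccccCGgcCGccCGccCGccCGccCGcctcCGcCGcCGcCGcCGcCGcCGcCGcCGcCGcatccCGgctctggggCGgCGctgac
ROR2: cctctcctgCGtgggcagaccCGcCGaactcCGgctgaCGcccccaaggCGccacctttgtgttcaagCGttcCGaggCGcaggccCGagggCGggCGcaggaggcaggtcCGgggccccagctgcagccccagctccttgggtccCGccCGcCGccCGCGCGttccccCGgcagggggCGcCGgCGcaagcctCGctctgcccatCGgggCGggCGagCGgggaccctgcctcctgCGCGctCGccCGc
FZD8: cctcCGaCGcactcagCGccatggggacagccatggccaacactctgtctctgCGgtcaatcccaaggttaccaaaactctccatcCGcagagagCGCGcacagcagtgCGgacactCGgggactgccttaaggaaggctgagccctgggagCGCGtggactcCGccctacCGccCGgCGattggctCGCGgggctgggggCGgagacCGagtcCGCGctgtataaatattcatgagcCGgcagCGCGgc
These windows held 40, 32 and 24 CpG dinucleotides in WNT4, ROR2 and FZD8, with 86.8%, 78.0% and 65.2% G and C. The median was 24 CpG over the 35 windows of Wnt genes and 11 over all 35116 windows. Neither searched motif occurs in the 3 windows. Of the other genes whose groups did not overlap, WLS, lower in Si-HOXA3, held 14 CpG. SFRP4 and WNT5B, both higher, held 17 and 10. The windows of WLS, SFRP4 and WNT5B reach into annotated exons, and a relation of CpG to direction was not tested.

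The other genes of the pathway were read by lists. Of all 16561 genes tested in edgeR, 8220 were lower and 8341 higher in Si-HOXA3. At an unadjusted p under 0.05 in that test, 2.57% were lower and 3.79% higher. Of 28 further genes of Wnt secretion, turnover and binding, 17 were tested, and 1 had an unadjusted p under 0.05: MESD, the chaperone of LRP5 and LRP6, with means of 66.3 CPM in NC against 78.8 CPM in Si-HOXA3 (log2 fold change 0.25, edgeR adjusted p = 0.777). Of the 10 planar cell polarity genes, all tested, 8 were lower and 2 higher, and none had an unadjusted p under 0.05. Their summed level was 471 to 474 CPM in NC, and in Si-HOXA3 it was 474 and 481 CPM in replicates 1 and 3 and 331 CPM in replicate 2. Of the 19 intracellular transducers, all tested, GSK3B was the 1 with an unadjusted p under 0.05, with 149 CPM in NC against 126 CPM in Si-HOXA3 (log2 fold change -0.24, edgeR adjusted p = 0.762). Of the 11 feedback and target genes 8 were tested, and LEF1 was the 1 with an unadjusted p under 0.05, with 155, 173 and 196 counts in NC and 207, 216 and 224 in Si-HOXA3 (log2 fold change 0.36, edgeR adjusted p = 0.741). AXIN2, a feedback inhibitor that β-catenin induces in many tissues, had 48, 47 and 58 counts in NC and 48, 66 and 47 in Si-HOXA3. CCND1 had 91, 74 and 60 counts in NC and 81, 52 and 49 in Si-HOXA3 (log2 fold change -0.26, edgeR adjusted p = 0.887). MYC had 70, 94 and 79 in NC and 81, 93 and 71 in Si-HOXA3 (0.06, edgeR adjusted p = 0.962). The study reported CCND1 and MYC as lower, by qRT-PCR and as protein. AXIN2, CCND1 and MYC are named outside the rule for named genes, after their values were seen.

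Markers of cell types were read beside these results. The shares of all tested genes were again 2.57% lower and 3.79% higher at an unadjusted p under 0.05 in edgeR's test. Of 17 markers of the pouch and foregut endoderm 7 were tested, among them EPCAM, CDH1 and EYA1, and none had an unadjusted p under 0.05. FOXA2, SOX17, PAX1, PAX8 and FOXN1 had 3 counts or fewer in every library, and TBX1 had 0 to 10 and PAX9 0 to 16. These markers were thus at or near 0, while EPCAM and CDH1 mark epithelia in general. In the study SOX17 was a marker of definitive endoderm on day 4, and FOXN1 of thymic epithelial cells induced after day 9. Low counts of SOX17 and FOXN1 therefore do not bear on pouch identity. Of 12 markers of amnion and trophoblast 11 were tested, and their levels were uneven. In NC, GABRP was at 954 CPM and KRT7 at 663 CPM, while CGA was at 17.4, ISL1 at 12.1 and TP63 at 1.17 CPM. CDX2, under the filter, had 2 to 9 counts per library. TFAP2B (log2 fold change 0.60) and TFAP2A (0.23) had an unadjusted p under 0.05 in edgeR's test, with adjusted p-values of 0.486 and 0.781. The summed level of that list was 3025 to 3272 CPM in NC against 3125 to 3377 CPM in Si-HOXA3. Of 10 mesenchyme markers 9 were tested, and VIM (0.50) and DCN (0.47) had an unadjusted p under 0.05 in edgeR's test, with adjusted p-values of 0.561 and 0.761. Their summed level was 4749 to 4948 CPM in NC against 4835 to 5366 CPM in Si-HOXA3, while PRRX1 was at 0 in all libraries. Of 7 pluripotency markers 4 were tested, the summed level was 1257 to 1312 CPM in NC against 1318 to 1474 CPM in Si-HOXA3, and NANOG had 0 to 4 counts. Of 8 neural markers 1 was tested. The part of these markers in the values of SFRP1, DKK3, WNT5B, WNT4, WLS and FZD8 was not tested.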

How the data were processed

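The data were 3 NC and 3 Si-HOXA3 libraries of RNA-seq. The authors deposited 1 table of raw counts of reads per gene, as whole numbers without normalization. LM-Seq libraries, single reads and DESeq2 are named in the methods, and the labels also name a SMARTER kit. The submitters' processing notes list the builds GRCm38 and mm10, while all 58735 gene identifiers are those of human GENCODE release 29 (GRCh38), from which symbols, positions and exon lengths were taken. The aligner, the counting program and the use of strand are not given in the sources used here, so counts of overlapping genes are uncertain, and reads from feeder cells were not separated here.

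The groups were compared with edgeR 4.0.16 under R 4.3.3 (filterByExpr, TMM, robust quasi-likelihood test, two-sided) and adjusted by Benjamini-Hochberg over all 16561 genes tested. CPM were computed from the deposited counts on the normalized library size. A gene's SE is its log2 fold change divided by the square root of the F statistic. As alternatives, DESeq2 1.42.0, upper-quartile normalization, no filter, a minimum of 1 CPM in 3 libraries, a replicate block, limma 3.58.1 (voom with sample quality weights) and the omission of each library in turn were tried. The script was tested on simulated counts with known changes.

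Named were the members that the study's text names for the Wnt pathway (those under the filter by their counts, without a fold change), tested members with an unadjusted p under 0.05 or groups that did not overlap, and the 3 highest tested members of each class by CPM per kb. From other lists, at most 4 genes with an unadjusted p under 0.05 were named. The members and lists were chosen with earlier results of these data known. Libraries of a group differed by 4.83 to 34.1 times the sampling noise (chi-square per degree of freedom), so none was counted as a duplicate.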

Additional observations from a re-analysis of the deposited data

How the results depend on the processing

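In the reported fit 1 gene passed an adjusted p of 0.05, whereas DESeq2 gave 38 genes, testing every gene with a count gave 100, limma-voom with sample quality weights gave 67, and the fits had 1 to 24 with each library left out in turn, the 24 without Si-HOXA3 replicate 2. At an unadjusted p of 0.05 there were 1053 genes, and 1862 with no filter, 2215 with limma-voom and 643 to 1828 with each library left out, where the omission of NC replicate 2 gave 643, that of NC replicate 3 gave 671 and that of Si-HOXA3 replicate 2 gave 1828. The labels name no pairing of same-numbered replicates, and whether they were paired is not known. The correlations of their deviations were 0.142, 0.104 and -0.059, and 4 of the 6 libraries correlated best with their own number. With the replicate block, 4 genes passed the adjusted threshold and 4 Wnt genes had an unadjusted p under 0.05 (SFRP1, DKK3, FZD4 and WNT5B), against 6 in the reported fit, 9 with limma-voom and 3 to 7 with each library left out, the 3 without Si-HOXA3 replicate 1. SFRP1, DKK3 and WNT5B were among them in all 12 alternatives. The shares of all tested genes at that p moved as well, from 2.57% lower and 3.79% higher in the reported fit. They were 2.77% and 3.92% with the replicate block and 6.22% and 7.16% with limma-voom. Without Si-HOXA3 replicate 1 they were 2.46% and 3.54%, and without Si-HOXA3 replicate 2 they were 5.45% and 5.21%. The Wnt genes whose groups did not overlap numbered 9, 12 with no filter, where DKK2, FZD10 and RSPO4 were added, and 10 to 13 with each library left out. The shares of all tested genes without overlap are given for the reported fit only, 6.88% lower and 6.41% higher. These counts of Wnt genes under the alternatives therefore have no share beside them. The median log2 fold change of the Wnt genes was -0.08, and it was -0.028 with no filter, -0.049 with limma-voom and -0.13 to -0.015 with each library left out, where the omission of NC replicate 2 gave -0.039, that of Si-HOXA3 replicate 3 gave -0.128 and that of Si-HOXA3 replicate 2 gave -0.015. Of 263 log2 fold changes of 22 Wnt genes under the alternatives, 240 kept their sign and their side of the threshold and 18 turned in sign. WNT6 was at -6e-05 with DESeq2, -0.019 with the replicate block, -0.18 with limma-voom and -0.20 to 0.14 with each library left out. LRP5 was at 0.019 and LRP6 at 0.026 with limma-voom, and with each library left out they ranged from -0.18 to 0.046 and from -0.24 to 0.024. With each library left out, FZD3 ranged from -0.17 to 0.0062, FZD7 from -0.14 to 0.056, WNT2 from -0.21 to 0.0057, WNT5A from -0.0061 to 0.067 and RSPO3 from -0.56 to 0.36. The cause of these differences was not tested, beyond the construction that groups of fewer libraries overlap less often. Of the 17 Wnt genes that are tested when no filter is set, 0 had an unadjusted p under 0.05 in edgeR, and their few counts limit what could be seen.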
